A study of Mus musculus with 6 samples.

Results

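The Notch receptor and target genes examined here were 10 genes chosen by name, namely Notch1, Notch2, Notch3, Notch4, Rbpj, Maml1, Hes1, Hey1, Dtx1 and Nrarp, out of 55471 gene identifiers in the expression table. All 10 were found, each with a single identifier, and 6 of them had a mean of at least 1 TPM (a transcript abundance corrected for gene length and expressed as a share of the library) over the 6 libraries, which was the minimum for testing. Total RNA was sequenced from haematopoietic stem cells (HSCs), sorted by surface phenotype as Lin- Kit+ Sca1+ CD48- CD150+, from mice of genotype ETV6-RUNX1 (E/R, a leukaemia fusion gene under inducible control). Uninduced mice, titled NoDox, gave 3 libraries, and mice given Dox (doxycycline) food for 2 weeks gave 3 induced libraries. Both groups carry the E/R genotype, so the fusion and doxycycline itself cannot be told apart. The labels used here give no age, no driver of the inducible allele and no number of mice behind a library, so the p-values measure the spread between these libraries.

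Notch receptors sit at the cell surface and are cut after binding a ligand on a neighbouring cell. The freed intracellular domain enters the nucleus, binds the DNA-binding protein RBPJ and recruits a Mastermind protein such as MAML1, which turns RBPJ from a repressor into an activator. Among the direct targets are Hes and Hey genes, which encode basic helix-loop-helix repressors, and Nrarp and Dtx1, which encode modulators of the pathway. In blood formation, Notch signalling is best known for T-lineage commitment and for the emergence of HSCs in the embryo.

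In induced HSCs the target Hes1 was nearly lost, while the receptors, Rbpj, Maml1 and Nrarp did not pass the test. Uninduced libraries averaged 11.7 ± 6.83 TPM and induced libraries 0.380 ± 0.134 TPM (SD, n = 3 for either), and the uninduced mean was 30.8 times the induced mean. It was the only member called by limma, 1 of 6 tested, with 0 called higher. Across all 13470 tested genes, 11.5% were called, 10.2% lower and 1.29% higher, so a single call among 6 genes is near the background share and the result concerns Hes1 rather than the members together. The groups did not overlap for 3 of the 6 members (Hes1, Notch2 and Rbpj, all lower), beside 33.1% of all tested genes in either direction and 28.2% lower. The median log2 change of the 6 was -0.52, beside -0.35 for all tested genes. The make-up of the libraries moved with that offset of all genes: nuclear protein-coding genes held 26.6 to 32.9% of the TPM in uninduced and 20.5 to 23.2% in induced libraries, and the part of this in the offset was not tested. Changes of the members are also given after median-of-ratios scaling, which brings the median of all genes to 0.0033 and the median of the members to -0.21. After that scaling Hes1 was again the only member called, beside 5.98% of all tested genes (3.1% lower and 2.88% higher), and the only member without overlap, beside 27.9%.

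**Figure D1:**
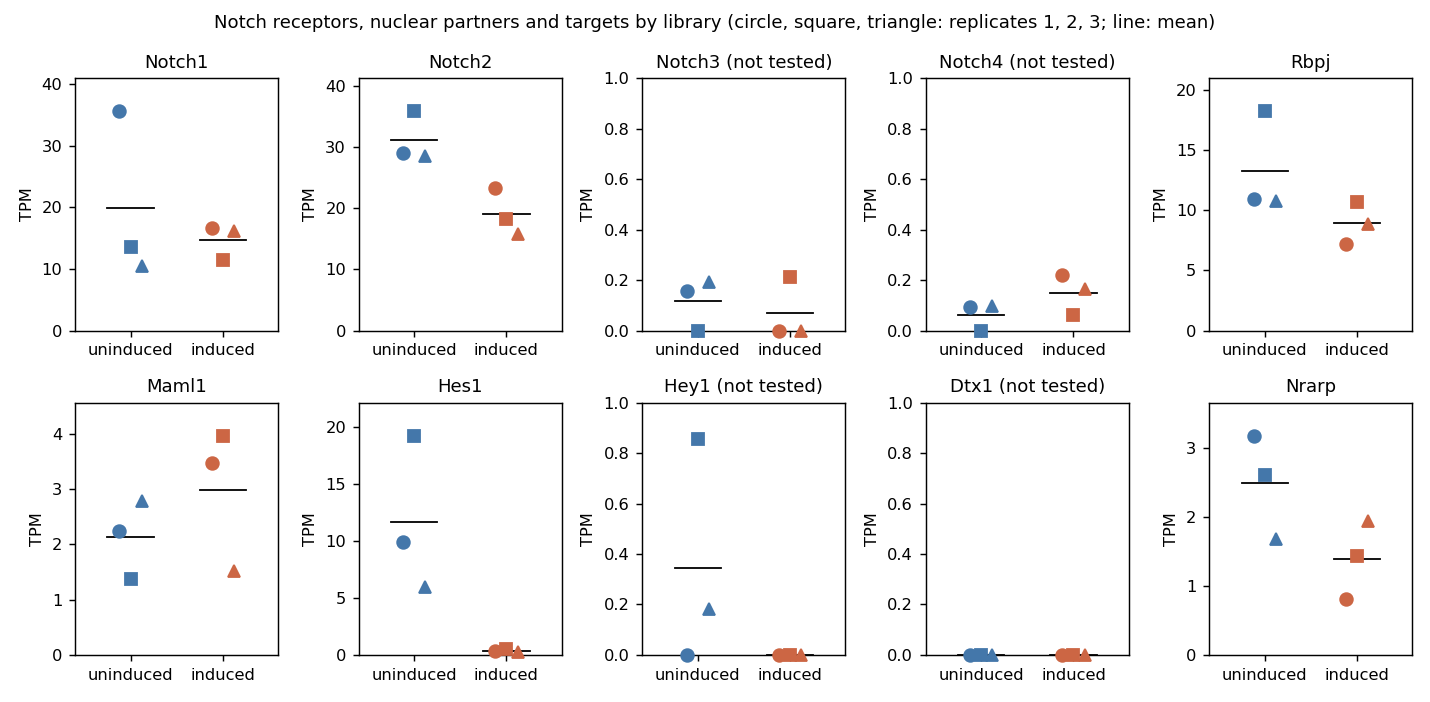
TPM of each of the 10 genes (vertical axes, linear from 0, one scale per gene) in the 3 uninduced and 3 induced libraries. Points are libraries, with the shape giving the replicate number, and the line is the group mean. Hes1 lies between 5.94 and 19.2 TPM in uninduced and between 0.250 and 0.517 TPM in induced libraries, whereas Notch1, Maml1 and Nrarp overlap between groups.

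The receptors were represented almost entirely by Notch1 and Notch2. Together these held 99.1 to 100% of the summed TPM of the 4 receptors in every library. Notch2 (ENSMUSG00000027878, GRCm38 chr3:98013527-98150361, plus strand) was listed at 29.0, 35.8 and 28.5 TPM in uninduced replicates 1 to 3 and at 23.4, 18.2 and 15.8 TPM in induced replicates 1 to 3. Every induced library was below every uninduced one on this scale. The log2 change was -0.69 (SE 0.23, 95% interval -1.19 to -0.18), with a limma adjusted p of 0.0819, so Notch2 did not pass. After median-of-ratios scaling its groups overlapped, at 24.6 to 28.7 against 17.1 to 26.8 scaled TPM, and the change was -0.29 (adjusted p 0.482 by limma).

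Notch1 (ENSMUSG00000026923, chr2:26457903-26516663, minus strand), the receptor that drives T-cell development, was listed at 35.6, 13.6 and 10.5 TPM in uninduced and at 16.6, 11.5 and 16.2 TPM in induced libraries. Uninduced replicate 1 stood well above the other 5 libraries, which lay within 10.5 to 16.6 TPM. By limma, the difference in log2 units was -0.23 (SE 0.40, 95% interval -1.13 to 0.66) with an adjusted p of 0.747. The sign is not settled: without uninduced replicate 1 the change was 0.27 (limma adjusted p 0.624), and after median-of-ratios scaling it was 0.15. Notch1 made up 54.9, 27.5 and 26.7% of receptor TPM in uninduced and 41.3, 38.3 and 50.4% in induced libraries, with overlapping groups (exact two-sided permutation p 0.4 on log2 values, where 3 against 3 libraries cannot give less than 0.1).

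Notch3 and Notch4 were barely detected. Notch3 (ENSMUSG00000038146, chr17:32120820-32166852, minus strand), best known from vascular smooth muscle, was listed at 0.156, 0 and 0.192 TPM in uninduced and at 0, 0.214 and 0 TPM in induced libraries. Notch4 (ENSMUSG00000015468, chr17:34564268-34588503, plus strand), best known from endothelium, was listed at 0.0925, 0 and 0.0969 TPM and at 0.219, 0.0609 and 0.166 TPM. Both were under the minimum and were not tested. Summed over all 4 receptors, the level was 64.8, 49.4 and 39.3 TPM in uninduced and 40.1, 29.9 and 32.2 TPM in induced libraries (exact two-sided permutation p 0.2 on log2 values), with induced replicate 1 above uninduced replicate 3.

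Of the nuclear partners, neither changed past the threshold. Rbpj (ENSMUSG00000039191, chr5:53466152-53657362, plus strand), the DNA-binding subunit, was at 10.9, 18.2 and 10.7 TPM in uninduced and 7.22, 10.7 and 8.89 TPM in induced libraries. The groups were separated only by the second decimal, between 10.75 in uninduced replicate 3 and 10.70 in induced replicate 2. By limma it differed by -0.50 log2 units (SE 0.30, adjusted p 0.312), and by -0.12 after median-of-ratios scaling, where the groups overlapped. Maml1 (ENSMUSG00000050567, chr11:50255634-50292311, minus strand), the coactivator, was at 2.25, 1.37 and 2.80 TPM in uninduced and 3.48, 3.97 and 1.52 TPM in induced libraries. These groups overlapped, at a difference of 0.31 log2 units (SE 0.43) and an adjusted p of 0.671 by limma, or 0.60 after median-of-ratios scaling (adjusted p 0.485).

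Hes1 (ENSMUSG00000022528, chr16:30064384-30067796, plus strand) encodes the repressor most widely used as a readout of Notch activity, and other pathways can also act on it. It was listed at 9.92, 19.2 and 5.94 TPM in uninduced and at 0.374, 0.517 and 0.250 TPM in induced libraries. The lowest uninduced library was above the highest induced library by a wide margin, and in TPM the uninduced libraries differed among themselves by more than the induced ones. The log2 change was -3.07 (SE 0.45, 95% interval -4.06 to -2.07, limma adjusted p 0.00415). On the log2(TPM + 1) scale this understates the fall, because the induced values lie under the pseudocount of 1. Hes1 had the 15th lowest log2 change of the 13470 tested genes, and the 12th lowest after median-of-ratios scaling (-2.82, limma adjusted p 0.00727). No other gene of the GENCODE annotation overlaps it.

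Set against the receptors in the same library, which removes any scaling between libraries, Hes1 stood at 15.3, 39.0 and 15.1 TPM per 100 TPM of receptor in uninduced libraries. In induced libraries it stood at 0.931, 1.73 and 0.776. These ratios do not overlap, with an exact two-sided permutation p of 0.1 on log2 values, the smallest that 3 libraries against 3 can give. Nrarp, set against the receptors in the same way, was at 4.90, 5.28 and 4.28 in uninduced and 2.01, 4.78 and 6.01 in induced libraries, which overlap (exact permutation p 0.8). A difference between Hes1 and Nrarp in response was not itself tested.

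**Figure D2:**
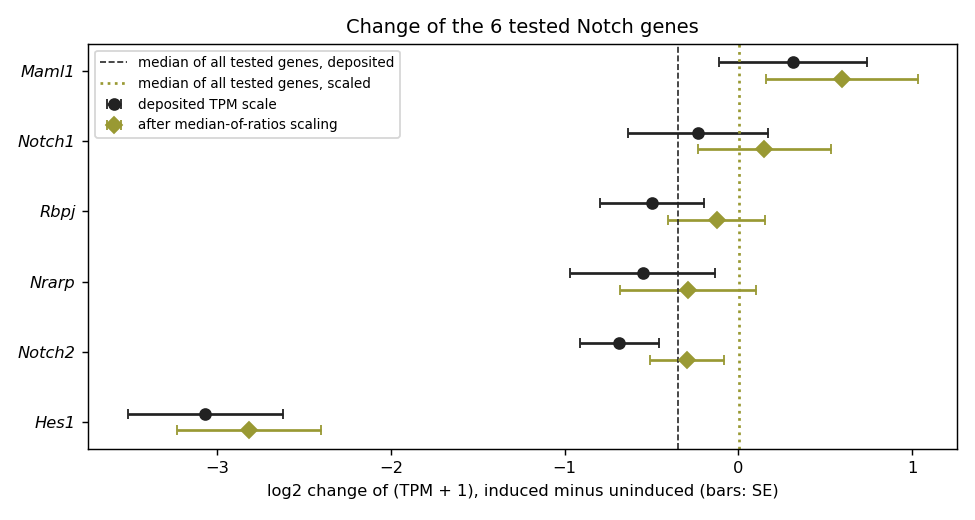
Log2 change of TPM + 1, induced minus uninduced, of the 6 tested genes (horizontal axis) on the deposited scale (circles) and after median-of-ratios scaling (diamonds), with SE bars. Vertical lines give the median of all tested genes on each scale. Hes1, at -3.07 and -2.82, lies apart from the others, which range from -0.69 to 0.31 and from -0.29 to 0.60.

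The other targets were low. Nrarp (ENSMUSG00000078202, chr2:25180758-25183339, plus strand), a small ankyrin-repeat protein that limits Notch activity, was at 3.18, 2.60 and 1.68 TPM in uninduced and 0.805, 1.43 and 1.94 TPM in induced libraries. The groups overlapped through uninduced replicate 3 and induced replicate 3, at a difference of -0.55 log2 units (SE 0.42, 95% interval -1.48 to 0.38) and an adjusted p of 0.429 by limma, or -0.29 after median-of-ratios scaling (adjusted p 0.731). Hey1 (ENSMUSG00000040289, chr3:8663359-8667256, minus strand), a repressor related to Hes1, was listed at 0, 0.857 and 0.182 TPM in uninduced and at 0 in the 3 induced libraries. Dtx1 (ENSMUSG00000029603, chr5:120680202-120711927, minus strand), a Deltex ubiquitin ligase, was listed at 0 in all 6. Hey1 and Dtx1 were not tested.

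By level per length, the order in uninduced libraries was Notch2, Notch1, Rbpj, Hes1, Nrarp and Maml1, followed by the 4 untested genes below 0.4 TPM. The means of Rbpj and Hes1, at 13.3 ± 4.27 and 11.7 ± 6.83 TPM (SD, n = 3 each), lie within each other's spread, as do those of Nrarp (2.49 ± 0.754) and Maml1 (2.14 ± 0.720). Notch1, at 19.9 ± 13.7 TPM, has both of the former within its SD, which is wide through uninduced replicate 1, while its own mean lies above theirs by more than their SD. In induced libraries the order was Notch2 (19.1 ± 3.86), Notch1 (14.7 ± 2.85), Rbpj (8.94 ± 1.74), Maml1 (2.99 ± 1.29), Nrarp (1.39 ± 0.567) and then Hes1. Hes1 was thus the fourth in the first order and stood below Nrarp in the second. The order of Notch2 and Notch1 by mean does not hold in every library. Notch1 was above Notch2 in uninduced replicate 1 (35.6 against 29.0 TPM) and induced replicate 3 (16.2 against 15.8 TPM).

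RBPJ recognises the word TGGGAA, and the longer word GTGGGAA contains it and is a stronger match. Upstream sequences of 250 bases before the start site were taken from the RefSeq promoter table (GRCm38.p6), which had entries for 8 of the 10 genes, Hes1 and Hey1 not among them. Shown are Hes5 and Nrarp. Hes5, a textbook Notch target, was listed at 0 in 5 libraries and at 0.832 TPM in induced replicate 1. Nrarp is, besides Hes1, the only tested target among the 10 genes. Capitals mark TGGGAA or its reverse complement TTCCCA in Hes5 and the E-box word CACGTG in Nrarp.
Hes5, chr4:154960673-154960922, plus strand: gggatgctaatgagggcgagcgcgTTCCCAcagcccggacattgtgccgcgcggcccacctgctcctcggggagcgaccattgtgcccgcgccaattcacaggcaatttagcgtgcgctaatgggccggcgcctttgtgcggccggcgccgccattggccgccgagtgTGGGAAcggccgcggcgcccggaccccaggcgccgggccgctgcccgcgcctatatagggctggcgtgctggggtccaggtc
Nrarp, chr2:25180508-25180757, plus strand: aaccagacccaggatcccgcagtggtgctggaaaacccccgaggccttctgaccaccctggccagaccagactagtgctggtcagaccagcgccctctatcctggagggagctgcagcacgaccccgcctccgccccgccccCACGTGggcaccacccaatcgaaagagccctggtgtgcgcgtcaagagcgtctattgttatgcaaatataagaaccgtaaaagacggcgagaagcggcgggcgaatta
Both Hes5 matches belong to the longer word, 1 on each strand, whereas the Nrarp window holds neither RBPJ word on either strand. GTGGGAA, on either strand, was present in 5.42% of 32817 promoter windows of this length, TGGGAA in 21.6% and CACGTG in 6.02%. Among the Notch pathway genes listed here with an entry, counting a gene if any of its windows matched, GTGGGAA was found in 6 of 63 and TGGGAA in 18 of 63. Some of these genes have several windows, so counts per gene are not directly comparable with the shares per window. A match describes letters only, and no binding was measured.

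The rest of the pathway was described with a list of 68 other genes, of which 52 could be tested. Of these, 8 were called lower and 1 higher by limma, or 17.3%, beside 11.5% of all tested genes. The median log2 change of the 52 was -0.17, above the -0.35 of all genes, and 18 of the 52 lay below that median. After median-of-ratios scaling 3 were called lower and 1 higher, beside 5.98% of all tested genes. The count changed when 1 library was left out: without uninduced replicates 1, 2 and 3 in turn it was 2, 2 and 7, and without induced replicates 1, 2 and 3 it was 4, 1 and 2. Of the called genes named here, Myc passed in all of these 6 fits but that without induced replicate 2 (limma adjusted p 0.0558), and Adam10 and Neurl1b passed in none. Pofut1, Kat2a and Nedd4 passed only without uninduced replicate 3, and their limma adjusted p in the other fits was 0.0576 to 0.108. Ccnd1 passed without uninduced replicate 3 or induced replicate 1, and was at 0.0677 to 0.0862 by limma in the others.

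**Figure D3:**
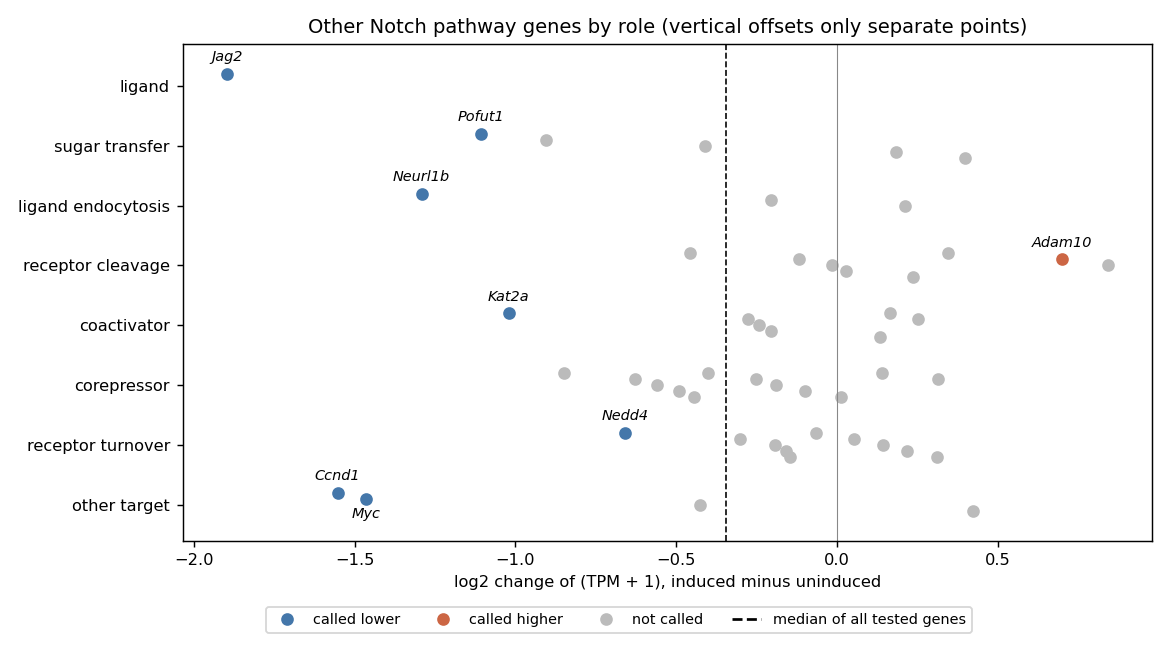
Log2 change of TPM + 1, induced minus uninduced (horizontal axis), of tested genes of the pathway list, grouped by role, without those not reported here. Coloured, named points passed a limma adjusted p of 0.05, and the dashed line is the median of all tested genes at -0.35. Jag2, Ccnd1 and Myc lie farthest to the left, and Adam10 is the only gene called higher.

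On the sending side, Jag2, a Jagged ligand, was the only 1 of 7 ligand genes with a mean of 1 TPM or more. It was listed at 13.3, 9.49 and 4.85 TPM in uninduced and 2.12, 1.20 and 1.47 TPM in induced libraries, and fell by 1.90 on the log2 scale (SE 0.41, limma adjusted p 0.0185). The uninduced libraries were all above the induced ones, and the call held after median-of-ratios scaling (-1.59, limma adjusted p 0.0447). It was lost when uninduced replicate 1 or 2 or induced replicate 2 or 3 was left out, with limma adjusted p of 0.0508 to 0.0707. Dll3, Dlk1 and Dlk2 were listed at 0 in all 6 libraries, and Dll1, Dll4 and Jag1 at no more than 1.08 TPM in any. Neurl1b, a ubiquitin ligase that promotes ligand endocytosis, was called lower, with uninduced libraries at 5.51 ± 0.855 and induced libraries at 1.68 ± 0.511 TPM (SD, n = 3 for either) (-1.29 log2 units, adjusted p 0.0451 by limma), a call lost after median-of-ratios scaling (-0.99, adjusted p 0.129).

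Among genes that modify or cut the receptor, Pofut1, which adds the O-fucose that Notch needs for ligand binding, was called lower, with uninduced libraries at 15.0 ± 3.17 and induced libraries at 6.37 ± 0.669 TPM (SD, n = 3 for either) (-1.11 log2 units, adjusted p 0.0300 by limma, and -0.74, adjusted p 0.122, after median-of-ratios scaling). The 3 Fringe genes, which extend that sugar, were not called, and Mfng was the highest of them at 44.5 to 62.2 TPM over all 6 libraries. Adam10, the protease that makes the first ligand-dependent cut, was at 42.8, 44.5 and 32.4 TPM in uninduced and at 62.6, 59.0 and 73.8 TPM in induced libraries. The groups did not overlap, and Adam10 rose by 0.70 log2 units (SE 0.20, adjusted p 0.0476 by limma), or 1.10 after median-of-ratios scaling (adjusted p 0.00483). Of the gamma-secretase genes, Psen2, Ncstn, Aph1a, Aph1c and Psenen were not called, and Aph1b was under the minimum.

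Among nuclear cofactors, Kat2a, an acetyltransferase, was the only 1 of 7 coactivator genes called, with uninduced libraries at 39.1 ± 8.55 and induced libraries at 18.4 ± 1.20 TPM (SD, n = 3 for either), hence lower (-1.02 log2 units, adjusted p 0.0210 by limma, and -0.63, adjusted p 0.0991, after median-of-ratios scaling). Of 10 tested genes for receptor turnover, Nedd4, a ubiquitin ligase, was called lower, with uninduced libraries at 93.7 ± 10.9 and induced libraries at 58.7 ± 2.65 TPM (SD, n = 3 for either) (-0.66 log2 units, adjusted p 0.0326 by limma, and -0.26, adjusted p 0.345, after median-of-ratios scaling).

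Other known targets split into those that were measured and those that were not. Hes7, Hey2, Heyl, Tcf7, Il2ra and Ptcra were listed at 0 in all 6 libraries. Of the 4 tested, Myc fell from 52.4, 74.7 and 52.1 TPM to 15.4, 18.0 and 31.8 TPM (-1.46 log2 units, SE 0.28, adjusted p 0.0120 by limma, and -1.07, adjusted p 0.0415, after median-of-ratios scaling). Ccnd1, which encodes cyclin D1, fell from 17.0, 13.6 and 10.3 TPM to 6.49, 2.92 and 3.00 TPM (-1.55 log2 units, SE 0.35, adjusted p 0.0227 by limma, and -1.20, adjusted p 0.0766, after median-of-ratios scaling). Both have many inputs besides Notch. Hes6 and Gata3 were not called, and Gata3 was listed at 7.53 to 16.6 TPM.

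**Figure D4:**
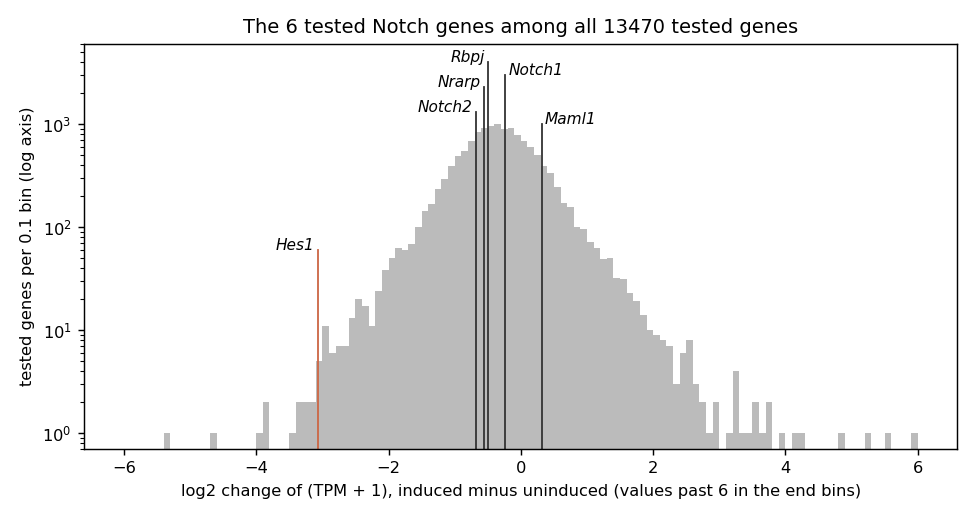
Distribution of the log2 change of TPM + 1, induced minus uninduced, over 13470 tested genes (vertical axis logarithmic), with vertical lines at the 6 tested Notch genes; line heights only separate the names. Hes1 lies in the lower tail, and the other members lie within the bulk of the distribution.

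Beside the change in Hes1, the same libraries differed in other gene lists. Of 10 proliferation genes, 9 were called lower on either scale, against 10.2% of all tested genes called lower as deposited and 3.1% after scaling, and their summed level was 381 to 443 TPM in uninduced and 77.1 to 110.5 TPM in induced libraries. Of 12 tested immediate early genes, which respond within minutes to stimulation, 5 were called lower and 0 higher (41.7%, against 11.5% of all tested genes) and 7 were not called. The 5 were Fos, Fosb, Jun, Egr1 and Nr4a1, while of the others Atf3, Ier3 and Ier2 had changes of -1.24, -0.46 and -0.12 log2 units and Junb, Dusp1, Zfp36 and Btg2 of 0.02 to 0.27. After median-of-ratios scaling 3 were called lower and 1, Dusp1, higher. Their sum, to which Fos and Jun gave the most, was 2163 to 2677 TPM against 1552 to 1709.9 TPM. The part of either in the fall of Hes1, Myc and Ccnd1 was not tested. In bulk libraries, fewer cells carrying a transcript and less transcript per cell cannot be told apart.

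The stem cell label was checked with 10 markers, all of which had a mean of at least 1 TPM, with 3 called higher and 2 lower, beside 1.29% and 10.2% of all tested genes. Median-of-ratios scaling gave 4 higher and 1 lower. On the deposited scale Procr, Hlf and Ly6a, which encodes Sca1, were among those called higher, and Kit among those called lower. Of the genes behind the sort, Ly6a rose from a mean of 14.2 to 37.3 TPM. Kit fell from 172 to 95.7 TPM, a call lost after scaling (limma adjusted p 0.224). The genes behind the other sort markers are not reported here. Of the markers of other cells, erythroid genes summed to 50.01 to 57.2 TPM in uninduced and 402 to 465 TPM in induced libraries, with 6 of 7 tested called higher, and their part in the results was not tested. On the deposited scale myeloid sums overlapped, at 236 to 284 and 233 to 284 TPM. There 1 of 6 tested genes was called, Prtn3, which rose from a mean of 18.9 to 42.3 TPM (adjusted p 0.0114 by limma). After median-of-ratios scaling 2 of the 6 were called higher, Prtn3 among them, and 0 lower, beside 2.88% and 3.1% of all tested genes. Megakaryocyte sums also overlapped as deposited, at 81.7 to 113.5 and 104.8 to 114 TPM. However, 3 of 4 tested genes were called in opposite directions. Pf4 rose from a mean of 28.4 to 60.7 TPM and Ppbp from 0.292 to 11.03 TPM, whereas Gp9 fell from 16.7 to 2.96 TPM, a call lost after median-of-ratios scaling (limma adjusted p 0.0625). The part of these genes in the results was not tested either. The 7 T-cell genes summed to at most 0.906 TPM in any library, with Cd3d, Cd3e, Cd3g and Cd8a at 0 in all, and the 7 B-cell genes to 4.35 to 9.86 and 3.11 to 3.85 TPM, nearly all Cd79b, with Pax5 at 0. Endothelial genes summed to 1.52 to 2.44 and 0.707 to 4.79 TPM and stromal genes to 1.16 to 6.08 and 1.32 to 1.52 TPM.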

How the data were processed

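Per the labels' protocols, libraries were stranded and made from total RNA with a low-input kit. The authors deposited a single StringTie gene table in TPM, and the submitters' processing notes also name HISAT2 and GRCm38, without versions. The annotation release is not given in the sources used here. The deposited GC content, in percent per the file headers, was not used. TPM keeps no depth, so sequencing depth is unknown and no counting interval can be given. The 60496 rows were summed per gene identifier. limma 3.58.1 (R 4.3.3), with a variance trend, was run on log2(TPM + 1) for genes whose mean TPM reached 1. Tests were two-sided, with Benjamini-Hochberg adjustment over all tested genes at 0.05. The fit was also run on data simulated from its own fitted means and variances, which cannot show how well the model suits these libraries. Gene positions and overlaps come from GENCODE M21 (GRCm38). All members are given, pathway genes when called (up to 3 per role), and the 3 genes closest in pattern to Notch1 and Hes1. Undetected pathway genes, gamma-secretase genes, Mfng, Hes5, Hes6 and Gata3 are named besides and were chosen after their values were seen. Some pathway and marker genes are counted in the totals but not reported here. The members and lists were chosen with earlier results of these data known. Alternatives covered pseudocounts, filters, scalings, a fit without the variance trend, library weights, the replicate number as a block, and omission of single libraries.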

Additional observations from a re-analysis of the deposited data

How the results depend on the processing

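Hes1 was the called member under each of the 17 alternatives, at a log2 change of -4.49 to -1.56 and a limma adjusted p of 0.00300 to 0.0336. The largest p came without the filter, where 23013 genes were tested, and the extreme changes came from pseudocounts of 0.1 and 5. No alternative called another member, including without the filter, where Notch3, Notch4 and Hey1 were tested too (limma adjusted p 0.784, 0.567 and 0.462). Notch1 changed sign under median-of-ratios scaling (0.15, also with the replicate block), quantile normalization (0.15), rescaling to nuclear protein-coding genes (0.19) and without uninduced replicate 1 (0.27), and ranged from -0.57 to 0.27 over omissions of 1 library. These 3 scalings bring the median change of all tested genes to 0.0033, -0.0048 and 0.0251. Rescaling to protein-coding genes took Hes1 to -3.75. It multiplies all genes of a library by the same factor, but the pseudocount of 1 stays fixed, so low values shift differently on the log2 scale.

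The 9 pathway calls became 2 without the filter and 4 (3 lower, 1 higher) under either median-of-ratios scaling or quantile normalization. Rescaling to protein-coding genes gave 3 lower and 3 higher, beside 8 and 1 as reported, and omitting 1 library gave 1 to 7. The 1549 calls among all genes became 752 without the filter and 767 without the variance trend. They became 814 with quantile normalization, 806 with median-of-ratios scaling and 886 with rescaling to protein-coding genes. Omitting 1 library gave 611 to 1276. The higher and lower calls were 174 and 1375 as deposited and 388 and 418 under median-of-ratios scaling. Beyond the number of genes tested and the offset of the scalings, the cause of these differences was not tested.

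Fitted with the replicate block, 902 genes, 5 pathway genes and Hes1 were called (limma adjusted p 0.0100), and with the replicate block and median-of-ratios scaling 452 genes, 1 pathway gene, higher, and Hes1 (0.0228). No label used here says that same-numbered libraries are related. Their deviations from the group means correlated at -0.015 to 0.021, and 3 of 6 libraries correlated best with their own number. With 3 libraries per group, these values cannot show whether libraries were paired.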

Other observations

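The genes closest to Hes1 in pattern, by the mean absolute difference in log2(TPM + 1) from their own uninduced mean over 6 libraries, were Nkg7 (0.184), Evc (0.201) and Mir6924 (0.227). Nkg7 had an uninduced mean of 9.29 TPM, and Nkg7 and Mir6924 were listed at 0 in the 3 induced libraries. Evc fell from a mean of 12.3 to 0.589 TPM (limma adjusted p 0.00159). The genes closest to Notch1 were Gramd1c, mt-Tg and Ntpcr, at differences of 0.108 or less, and none of them was called. Both sets were picked by their values in these same libraries, so whether they are called follows from that choice and gives no further support.

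Of the members, Nrarp and Maml1 lie for most of their span across from antisense genes in the GENCODE annotation. Gm38287 covers 99.1% of the span of Nrarp and was listed at 0 in all 6 libraries. Gm26542 covers 90.5% of the span of Maml1 and was listed at 0.742 TPM in uninduced replicate 1, 0.458 TPM in induced replicate 3 and 0 elsewhere. The libraries were stranded, but whether the strand was used in quantification is not given in the sources used here. On the same strand as Notch1, within it, the annotation places Mir6996, listed at 12.6 TPM in uninduced replicate 2, 5.28 TPM in induced replicate 3, 0.00459 TPM in induced replicate 1 and 0 in the other libraries.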
